A study of Mus musculus with 2 samples.

Results

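The regions described here are chromatin peaks on chromosomes 1 to 19 that lay more than 100 kb from the start of every gene listed in the count tables and that were found in both fetal lung libraries of the study. A peak was counted as found in both when it overlapped a peak of the other library by at least 1 bp. By this rule 5920 of 132065 autosomal peaks in the PBS library and 5888 of 117938 in the OVA library qualified, and overlapping pairs were merged into 5851 regions out of 99716 merged regions shared by both libraries. They are called far regions below. The remaining shared regions served for comparison, with 27221 within 1 kb of a gene start (start regions) and 66644 from 1 to 100 kb away (near regions).

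Open chromatin far from gene starts usually marks enhancers, insulators or the starts of transcripts that an annotation leaves out. Enhancers are bound by transcription factors and can act over long distances, because the chromatin fibre folds and brings them close to a promoter. Genes for developmental transcription factors often lie next to long stretches poor in other genes that carry many such elements, and those elements tend to be open in some cell types and closed in others.

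The far regions lay a median of 156 kb from the nearest listed start, with quartiles at 121 kb and 231 kb. Of them, 1899 were over 200 kb away, 334 over 500 kb and 35 over 1000 kb, and the most distant was 1812 kb away. Because overlapping partners were merged, the closest merged region reached to 99728 bp of a start. The working name "gene desert" did not hold for all of them. In the GENCODE M21 annotation of GRCm38, 2515 of the 5851 regions (43.0%) lay inside the body of a listed gene, far downstream of its start, and 262 of these overlapped an exon. The 615 host genes had a median length of 307 kb. All were over 100 kb, which follows from the distance rule. Rad51b, a paralogue in homologous recombination repair, held 59 regions, the tumour suppressor Wwox held 31, and Ttc28 held 29. The other 3336 regions lay between gene bodies and were the more distant group, with a median of 177 kb against 139 kb. In addition, 128 far regions were within 1 kb of the start of an annotated gene that the count tables do not list, and 65 of these genes were processed pseudogenes.

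**Figure D1:**
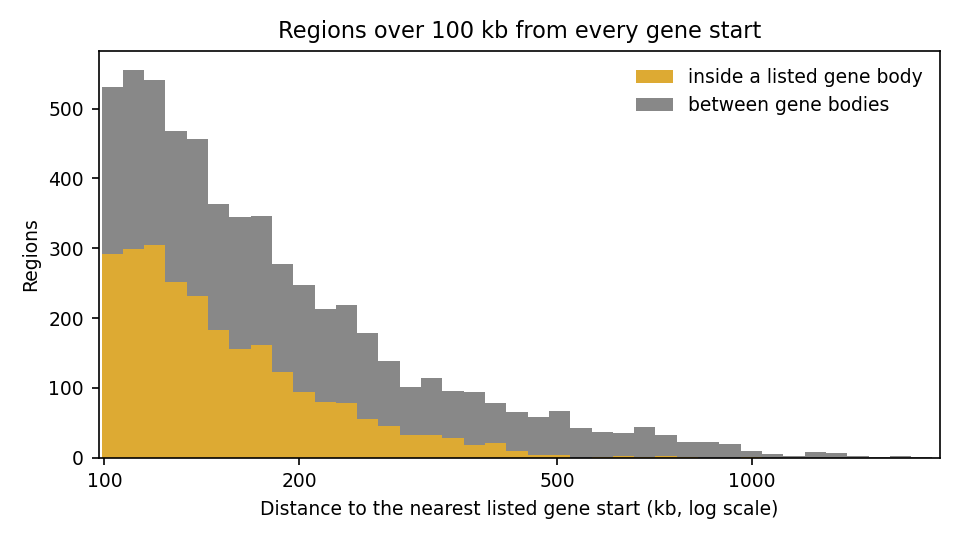
Number of far regions (y axis) by distance to the nearest listed gene start in kb (x axis, log scale), stacked by position inside a listed gene body (2515 regions) or between gene bodies (3336 regions). Most regions sat below 231 kb, and the regions inside gene bodies were concentrated at the shorter distances.

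Each library was 1 pool of lungs from wild-type fetuses of 1 dam at gestation day 18. The PBS library held 9 fetuses of a control mother that received PBS with alum on days -21 and -7 and intranasal PBS from gestation day 4 to 17. The OVA library held 8 fetuses of an OVA-asthmatic mother that received 100 µg ovalbumin with alum on the same days and repeated intranasal doses of 500 µg ovalbumin over the same period. The mothers were 6 to 8 weeks old at the first alum injection. Nuclei came from a mix of 3 sorted fractions, namely group 2 innate lymphoid cells (ILC2s, CD45+ Lin- ST2+), CD45+ cells and EpCAM+ epithelium, so the number of nuclei of each type also reflects the sort and the mixing. No fraction was sorted for fibroblasts, smooth muscle or pericytes, yet fibroblasts were the largest gated type (575 and 973 nuclei), and how they came into the libraries was not tested. With 1 library per group there was no replicate, no p-value was computed, and each difference is between 2 libraries and not between conditions. Intervals are 95% exact intervals and cover counting error only. They are too narrow, since both ends of 1 DNA fragment are counted.

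The PBS library held 8019 barcodes, 11473351 gene UMIs and 66520943 transposition counts in peaks, and the OVA library 5960, 13774959 and 51197323. Of these barcodes, 4572 and 5246 passed the filters on nuclei, 1844 and 2625 could be assigned to a cell type by RNA markers, and 54 barcode sequences occurred in both libraries. A nucleus was gated to a type when it held at least 3 of that type's 10 markers and at least 2 more than of any other type. Cell types with at least 50 nuclei in both libraries were compared. These were ILC2 (303 nuclei in PBS and 519 in OVA), macrophages (59 and 135), surfactant-making alveolar type 2 cells (AT2, 441 and 316), gas-exchanging alveolar type 1 cells (AT1, 198 and 294), fibroblasts, myofibroblasts or smooth muscle (63 and 78) and pericytes (80 and 126). All 10 gate markers were highest in their own type for ILC2, macrophages, AT2, AT1 and pericytes in both libraries, 8 of 10 for fibroblasts and 9 of 10 for myofibroblasts or smooth muscle. The same markers had assigned the nuclei, so this result was largely built in and does not test the identity of the types. The macrophage gate missed most myeloid nuclei. A macrophage list extended to 20 genes, chosen after the data were seen, took 1039 and 1578 nuclei, and some of its values are given beside the results. The mitochondrial share of UMIs ranged from 24.3% (AT1) to 43.8% (macrophages) in PBS and from 18.1% (fibroblasts) to 36.3% (macrophages) in OVA, and its part in the results was not tested.

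Some far regions overlapped transcript starts that only RefSeq lists. In all, 44 of 27025 RefSeq start windows, each running from 250 bases before to 50 bases after a start, lay wholly inside 42 far regions, of which 23 had enough counts to be tested for preference and 13 were called for a cell type (over all tested far regions 74.3% were called). Sequence for the remaining regions was not used here. The windows below are, among these, the 2 in fibroblast and the 2 in ILC2 regions with the highest preference, chosen after the values were seen. They are shown because they give the bases inside 4 distant elements called for fibroblasts or ILC2s. All are from GRCm38.p6 as given by RefSeq, on the transcript strand, 5′ to 3′, with matches to the searched motifs in capitals. The first belongs to the predicted gene Gm35252 (chr1:62956545-62956844, minus strand, region 157 kb from the coding gene Ino80d) and holds 1 E-box.
Gm35252: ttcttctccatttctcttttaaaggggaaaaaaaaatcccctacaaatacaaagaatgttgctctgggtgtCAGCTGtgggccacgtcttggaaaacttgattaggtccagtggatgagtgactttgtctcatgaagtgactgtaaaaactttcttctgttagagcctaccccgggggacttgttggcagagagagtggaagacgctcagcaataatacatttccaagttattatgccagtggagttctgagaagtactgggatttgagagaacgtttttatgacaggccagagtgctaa
The second belongs to Gm34637 (chr12:12669868-12670167, minus strand, 270 kb from Mycn) and holds 2 TEAD motifs in reverse.
Gm34637: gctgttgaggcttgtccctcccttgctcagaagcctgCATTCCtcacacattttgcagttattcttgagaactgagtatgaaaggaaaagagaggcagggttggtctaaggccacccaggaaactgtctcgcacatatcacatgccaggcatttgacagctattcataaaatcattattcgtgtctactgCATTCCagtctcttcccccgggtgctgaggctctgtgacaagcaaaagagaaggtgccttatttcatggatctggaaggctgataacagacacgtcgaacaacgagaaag
The third belongs to Gm38791 (chr6:37714405-37714704, plus strand, 156 kb from Trim24) and held none of the searched motifs.
Gm38791: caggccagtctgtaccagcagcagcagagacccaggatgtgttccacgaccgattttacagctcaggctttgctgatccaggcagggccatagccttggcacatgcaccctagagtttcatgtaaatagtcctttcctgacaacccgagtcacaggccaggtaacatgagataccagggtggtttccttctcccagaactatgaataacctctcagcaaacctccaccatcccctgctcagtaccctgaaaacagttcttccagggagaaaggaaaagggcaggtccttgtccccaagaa
The fourth belongs to Gm39767 (chr2:21964118-21964417, minus strand, 263 kb from Myo3a) and holds 1 E-box.
Gm39767: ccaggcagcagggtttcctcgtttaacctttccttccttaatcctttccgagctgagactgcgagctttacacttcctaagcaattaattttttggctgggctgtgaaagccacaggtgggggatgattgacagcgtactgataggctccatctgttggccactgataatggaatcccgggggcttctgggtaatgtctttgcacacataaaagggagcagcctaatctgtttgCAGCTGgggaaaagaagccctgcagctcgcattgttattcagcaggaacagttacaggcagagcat

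The Gm35252 region held 52 of 62 counts in fibroblasts in PBS and 130 of 138 in OVA. At Gm34637 the fibroblast counts were 43 of 58 and 150 of 175. The Gm38791 region had 32 of 51 counts in ILC2s in PBS and 58 of 73 in OVA, and the Gm39767 region had 26 of 52 and 57 of 84. Other types had counts there too. Per 1000000 counts of a type in shared regions (CPM), myofibroblasts or smooth muscle had 8.14 and 15.8 at Gm34637 against 10.9 and 20.9 in fibroblasts, and 12.2 and 3.16 at Gm39767 against 10.3 and 13.1 in ILC2s, and these values of myofibroblasts or smooth muscle rest on 2 to 10 counts.

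Motifs were searched as letters on both strands of the 44 windows and of all 27025 windows. RUNX (TGTGGT) was in 29.5% of the windows in far regions and in 16.9% of all windows, the E-box CAGCTG in 29.5% and 16.1%, AP-1 (TGANTCA) in 13.6% and 7.93%, the CTCF core (AGNNGGCGC) in 13.6% and 7.32%, and PU.1 (GAGGAAGT) in 6.82% and 3.28%. SP/KLF (GGGCGG), common at housekeeping promoters, was in 29.5% and 35.9%. The motif of GATA factors (AGATAA) was in 9.09% and 11.4%, CEBP (TTGCNNAA) in 11.4% and 10.8%, TEAD (GGAATG) in 15.9% and 14.6%, and the NKX2-1 core (CAAGTG) in 18.2% and 13.5%. The glucocorticoid receptor core (ACANNNTGT) was in 2.27% and 6.90%, and FOX (TGTTTAC) and MEF2 (CTATTTATA) were in none of the 44 windows and in 3.55% and 0.426% of all windows. The windows in far regions had a median of 4 CpG dinucleotides against 7 in all windows and a median GC content of 49.0% against 52.7%. With 44 windows these shares are a description of those windows alone. One far region in an intron of Fndc3b (chr3:27584257-27585156) overlapped the hairpin of miRNA Mir3092 and was called macrophage-preferential.

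Among the compared types, fibroblasts had the largest share of their counts in far regions, within peaks called per library and found in both. How the number of nuclei of a type enters this share was not tested. Of all counts in shared regions, 2.34% in PBS (95% interval 2.32 to 2.35) and 2.64% in OVA (2.63 to 2.65) fell in far regions in fibroblasts. AT2 cells were next with 1.98% (1.97 to 1.99) and 2.05% (2.04 to 2.07). ILC2s were low with 1.48% (1.47 to 1.50) and 1.56% (1.55 to 1.57), and so were pericytes with 1.50% (1.47 to 1.53) and 1.54% (1.52 to 1.56). Macrophages had 1.69% and 1.80%, AT1 cells 1.69% and 1.60%, and myofibroblasts or smooth muscle 1.68% and 1.72%. The order of the middle 3 types differed between the libraries. The fibroblast share was 1.58-fold (1.56 to 1.59) the ILC2 share in PBS and 1.69-fold (1.68 to 1.71) in OVA, and 1.18-fold and 1.29-fold the AT2 share. The gap between fibroblasts and ILC2s was larger than the gap between the libraries within either type, whereas ILC2s and pericytes differed from each other by less than the libraries did.

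**Figure D2:**
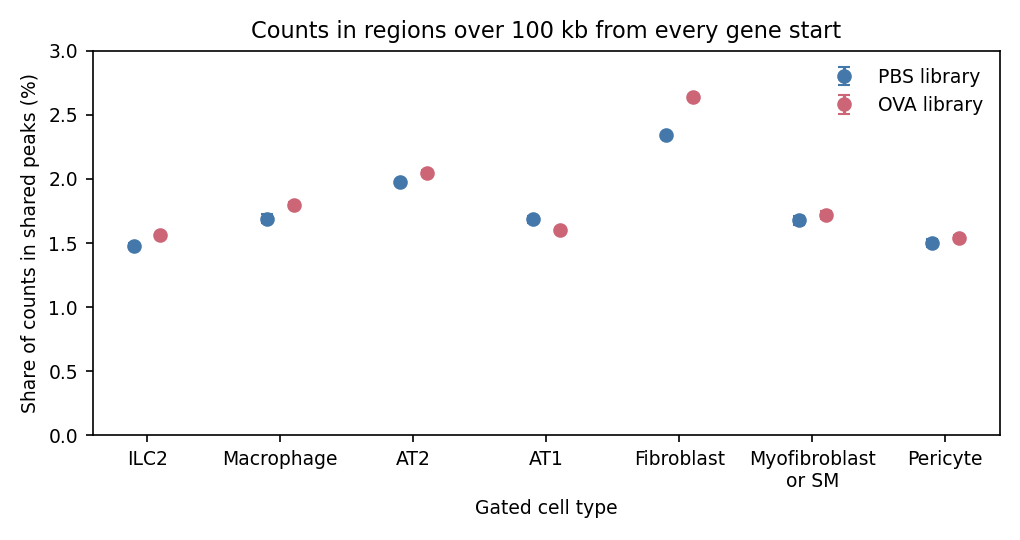
Share of counts in shared regions that fell in far regions (y axis, %) in the 7 gated cell types (x axis), for the PBS and OVA libraries. Points are shares and bars are 95% exact intervals, mostly smaller than the points. Fibroblasts sit highest in both libraries, at 2.34% and 2.64%.

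The share of signal outside promoters gave a related order. Among counts outside start regions, far regions held 6.36% in PBS and 6.95% in OVA in fibroblasts, 5.32% and 5.48% in AT2 cells, 4.15% and 4.23% in ILC2s, and 4.12% in macrophages in both libraries. Pericytes, low on all counts, had 4.92% and 4.90% on this scale, because 69.5% and 68.5% of their counts were in start regions. Far regions inside gene bodies and between them contributed alike. In fibroblasts they held 1.16% and 1.18% of counts in PBS and 1.30% and 1.34% in OVA.

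The fibroblast to ILC2 ratio was higher at greater distances, though not at every step. The fibroblast share was 0.927 and 0.910 of the ILC2 share (PBS and OVA) for regions 1 to 10 kb from a start, 1.02 in both at 10 to 50 kb and 1.24 and 1.28 at 50 to 100 kb. It was 1.46 and 1.59 at 100 to 150 kb, 1.74 and 1.89 at 150 to 200 kb, 1.53 and 1.58 at 200 to 300 kb, 2.15 and 2.27 at 300 to 500 kb, and 1.76 and 1.61 beyond 500 kb, where 334 regions remained. The AT2 to ILC2 ratio was 0.981 and 0.967 at 1 to 10 kb and 1.86 and 1.80 at 300 to 500 kb, but 1.12 and 0.993 beyond 500 kb.

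Most far regions with enough counts were open preferentially in 1 cell type. A region was called for a type when its level, in CPM (counts per 1000000 counts of that type in shared regions), was at least 2-fold that of all other gated nuclei with an exact interval above 1 in both libraries separately. The call needed at least 50 counts over gated nuclei in each library, which 2013 of the 5851 far regions reached, and the others were not tested. The median far region held 36 counts in PBS and 56 in OVA, against 158 and 205 in start regions. Among the 2013, 1338 were called for 1 type, 151 for 2 types, 6 for 3 types and 518 for none. The share called for any type was 74.3%, against 58.3% of near, 29.8% of start and 48.4% of all tested shared regions. Because fibroblasts and AT2 cells supplied many of the gated nuclei, regions open in them reached 50 counts more easily, so these counts describe the regions tested.

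Fibroblasts had 589 called far regions (29.3% of 2013), against a background of 12.0% over all 58544 shared regions tested. AT2 cells had 532 (26.4%) against a background of 15.0%, and AT1 cells 94 (4.67%) against 3.41%. For ILC2s, 164 far regions were called (8.15%), below their background of 9.46%, and for macrophages 177 (8.79%), below 10.1%. Myofibroblasts or smooth muscle had 50 (2.48%, background 2.28%) and pericytes 52 (2.58%, background 2.83%). The called share in fibroblasts went from 6.37% of tested start regions and 14.4% of near regions to 29.3% of far regions, whereas that in ILC2s went from 6.13% to 11.5% and then to 8.15%. Regions called for no type made up 70.2% within 1 kb of a start, 26.7% at 100 to 150 kb and 22.2% at 200 to 300 kb. With the extended macrophage list 2953 far regions could be tested, and macrophages had 844 of them (28.6%) against 26.2% of all tested regions, with fibroblasts at 25.8% against 12.9%. Which of fibroblasts and AT2 cells had more called regions turned with the settings. A gate of 4 markers and a lead of 3 gave 381 regions for AT2 cells (39.0% of 977 tested) and 190 for fibroblasts (19.4%), and the joint filter on RNA and chromatin counts gave 436 and 322. Whether ILC2s and macrophages fell below their background also turned with the settings. ILC2s had 11.2% against 9.25% with that stricter gate, 8.39% against 7% at 100 counts or more, and 5.61% against 4.82% at a ratio of at least 4. With the joint filter ILC2s had 6.84% against 6.83% and macrophages 10.5% against 9.61%. In the other settings run ILC2s stayed below, for example with 7.68% against 9.46% outside gene bodies.

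**Figure D3:**
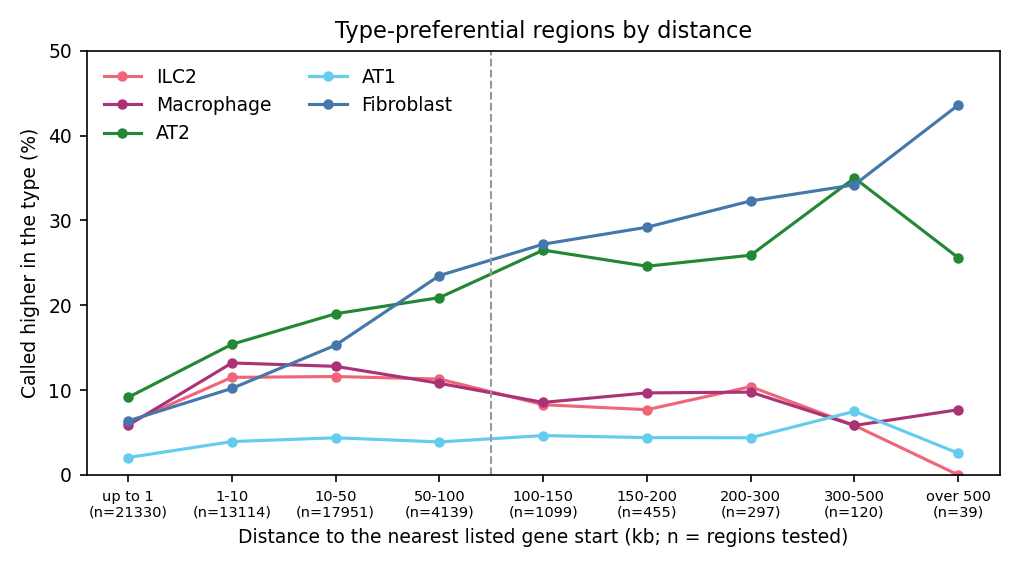
Percent of tested regions called higher in a cell type (y axis) by distance to the nearest listed gene start (x axis, kb, with the number of regions tested), for 5 gated types. The dashed line marks 100 kb. The fibroblast line goes from 29.2% at 150 to 200 kb to 43.6% over 500 kb, while the ILC2 line stays at or below 11.6%. At 300 to 500 kb the AT2 line (35.0%) is above the fibroblast line (34.2%). The last point rests on 39 regions.

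Among regions of like depth, far regions again had the largest shares called for fibroblasts and AT2 cells. The order of start and near regions in ILC2s changed with depth. Among regions with 50 to 100 counts in PBS and at least 50 in OVA, 32.9% of 1300 far, 16.3% of 19273 near and 14.3% of 4720 start regions were called for fibroblasts. For AT2 cells these shares were 19.7%, 13.2% and 12.1%, and for ILC2s 8.62%, 13.1% and 13.8%. The next depth range had 100 to 200 counts in PBS and at least 100 in OVA. There the fibroblast shares were 29.1% of 477 far, 14.0% of near and 10.9% of start regions, and the ILC2 shares 9.01%, 11.6% and 11.3%. At 200 to 400 counts, chosen likewise, with 92 far regions, the ILC2 shares were 9.78%, 9.00% and 4.51%.

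Calls made in 1 library could be read in the other. Of the far regions called for fibroblasts in PBS, 92.3% were also called in OVA, and 82.5% of those called in OVA were called in PBS. The shares were 90.5% and 92.0% for AT2 cells, 80.0% and 82.4% for ILC2s, and 81.9% and 70.2% for macrophages. They were lower for AT1 cells (58.0% and 36.4%), pericytes (37.1% and 40.9%) and myofibroblasts or smooth muscle (31.2% and 32.9%), both from at most 126 nuclei per library. The 205 far regions called for ILC2s in PBS had a median ratio of 5.16 in OVA, and 196 of them were above 1 there. The 160 called for myofibroblasts or smooth muscle in PBS had a median ratio of 1.51 in OVA, with 106 above 1. Of the 94 regions called for AT1 cells, 84 (89.4%) were also called for AT2 cells, which is 15.8% of the AT2 calls. No region was called for both fibroblasts and AT2 cells or for both fibroblasts and ILC2s, while 30 of the 52 pericyte regions (57.7%) and 22 of the 50 myofibroblast or smooth muscle regions (44.0%) were also fibroblast regions. These overlaps are given for far regions alone, without the overlaps over all tested regions. A call compares a type with all other gated nuclei together, so the rule itself makes a joint call of large types harder.

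The far regions with the strongest ILC2 preference were nearly closed in other cells. The strongest lay in Pde11a, a cyclic nucleotide phosphodiesterase gene, 123 kb from its start and over an exon (chr2:76214864-76215853), where 77 of 82 counts in PBS and 109 of 113 in OVA were from ILC2s. These came from 34 of 303 and 50 of 519 ILC2 nuclei, so no single nucleus made the value. Its level was 80.7-fold that of the other gated nuclei in PBS (33.1 to 255) and 103-fold in OVA (39.2 to 386). Next were a region between Bckdhb and Gm11114 (chr9:85096214-85097234), with 50 of 54 counts in both libraries, and a region in Scfd2 (chr5:74402425-74403413), with 60 of 68 and 79 of 85.

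In the leading macrophage regions other types held more of the counts. In Vps13d, 126 kb from Dhrs3, a retinaldehyde reductase gene (chr4:145018946-145019853), macrophages had 20 counts in PBS and 70 in OVA, or 32.3 and 52.6 CPM, against 4.77 and 7.12 CPM in ILC2s. A region 103 kb from Gm826 (chr2:160209669-160210345) had 38.8 and 27.0 CPM in macrophages and at most 5.09 in any other type. A region in Gpc6 (chr14:117778466-117779359) had 29.1 and 29.3 CPM, from 7 of 59 and 19 of 135 nuclei.

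The leading AT2 regions held few counts from AT1 cells, which also had fewer counts in total. The leading AT1 regions were open in AT2 cells too. The AT2 region farthest from a start among the leading ones lay 589 kb from Gm19782, between Khdrbs3 and Fam135b (chr15:70600682-70601788), and held 176 of 188 counts from AT2 cells in PBS and 133 of 143 in OVA. AT1 cells had 8 counts there in each library, or 7.57 and 6.98 CPM against 34.6 and 41.3 in AT2 cells. A region between Camk1g and Plxna2 (chr1:194089851-194090957) had 68 of 70 and 63 of 73 counts from AT2 cells, and one between Mki67 and Mgmt (chr7:136487016-136487998) had 102 of 102 and 61 of 72. In Syne2, which encodes a nuclear envelope protein (chr12:76004511-76005603), the level was 77.6 and 73.3 CPM in AT1 cells and 26.7 and 30.8 in AT2 cells. A region in Hmbox1 (chr14:64815772-64816800) had 24.6 and 29.7 CPM in AT1 cells and 6.49 and 14.6 in AT2 cells, and one 164 kb from Tas2r119 (chr15:32012667-32013730) had 21.8 and 29.7 against 6.68 and 6.84.

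The leading fibroblast regions held nearly all their counts in fibroblasts. The region between Pik3r1 and Cd180 (chr13:102016319-102017259) had 58 of 60 counts from fibroblasts in PBS and 144 of 148 in OVA, from 28 of 575 and 68 of 973 nuclei. One between Nmbr and Cited2 (chr10:15031268-15032294) had 60 of 64 and 162 of 164, and one in Naaladl2 (chr3:24629744-24630819) had 64 of 69 and 136 of 143. Most leading pericyte and myofibroblast regions also had counts in fibroblasts. In Slit3, which encodes a secreted guidance protein (chr11:35586892-35587928), myofibroblasts or smooth muscle had 28.5 and 31.6 CPM and fibroblasts 7.63 and 9.18. A region near Bmp5, a bone morphogenetic protein gene (chr9:75909689-75910903), had 29.0 and 32.2 CPM in pericytes and 7.63 and 9.32 in fibroblasts. Regions in Msi2 (chr11:88586003-88586909) and Dym, near Smad7, had 10 and 12 (Msi2) and 14 and 18 counts (Dym) in myofibroblasts or smooth muscle, and 14 in both libraries and 12 in both in pericytes. Pericytes led at a region between Disc1 and Sipa1l2 (chr8:125349094-125350079), with 32.6 and 20.9 CPM. They also led at one 108 kb from Pcdh18 (chr3:49865772-49866809), with 25.4 and 27.0 CPM against 20.4 and 12.6 in myofibroblasts or smooth muscle.

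The most strongly open far regions, in contrast, were open in every type. The one with the most counts lay in Camk1d, 241 kb from the start of Ccdc3 (chr2:5378702-5379765), with 1886 counts in PBS and 2516 in OVA. Its level ranged from 77.6 (macrophages) to 204 CPM (myofibroblasts or smooth muscle) in PBS and from 55.6 (macrophages) to 192 (AT1) in OVA. The next were in Jarid2 (chr13:44869209-44870095, 1136 and 1467 counts), on chromosome 18 between Fbxo15 and Neto1 (880 and 1553), between Npvf and Nfe2l3 (chr6:51178097-51179029, 916 and 1280), and in Arid1b (chr17:5189537-5190422, 910 and 1234). None of these 5 was called for a type, and 2 of the 20 and 53 of the 100 with the most counts were.

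Many far regions had another far region nearby. The distance rule confines them to stretches without a listed start, so some grouping is built in. No such share is given here for near or start regions. When regions at most 50 kb apart were joined, 4425 of 5851 (75.6%) had a neighbour, and 74 runs held 10 or more regions. The longest run held 60 regions over 413 kb (chr12:79408980-79822444), 59 of them in the body of Rad51b, with Zfp36l1, an RNA-binding protein gene, 291 kb beyond its end. It was shared by many types. Of its 30 tested regions, 11 were called for AT2 cells, 5 for ILC2s, 4 for fibroblasts and 3 for macrophages. Summed over the run, the level was 315 and 358 CPM in AT2 cells, 283 and 286 in fibroblasts, 256 and 288 in ILC2s and 97.9 and 181 in pericytes. Zfp36l1 itself had the highest RNA level in fibroblasts (1018 and 1106 RNA CPM, that is UMIs per 1000000 UMIs of nuclear genes), followed by ILC2s (971 and 895).

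The second run held 40 regions between Chd7, a chromatin remodeller, and Clvs1 (chr4:8853729-9136470), and was most open in the immune types. Its summed level was 345 and 367 CPM in ILC2s and 317 and 363 in macrophages, against 217 and 204 in fibroblasts and 168 and 158 in AT2 cells. Of its 22 tested regions 7 were called for ILC2s and 6 for macrophages. Chd7 RNA was also highest in these types, with 625 and 809 RNA CPM in ILC2s, 615 and 758 in macrophages and at most 164 in the other types, while Clvs1 RNA was at most 3.93 in any type.

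The third run, of 31 regions 166 kb or more from Runx1 (chr16:92992503-93247647), had 175 and 244 CPM in macrophages, 106 in AT2 cells in both libraries and 49.3 and 60.6 in ILC2s, and of its 11 tested regions 5 were called for AT2 cells and 4 for macrophages. Runx1, a transcription factor of blood cell development, had RNA in both types, with 1077 and 1560 RNA CPM in macrophages and 946 and 1159 in ILC2s. With the extended macrophage list the run had 219 and 235 CPM in macrophages. The fourth run of 30 regions, 23 of them in the non-coding RNA gene Pvt1 next to Myc (chr15:62138861-62434081), had 150 and 219 CPM in macrophages (218 and 233 with the extended list), 130 and 155 in ILC2s and at most 91.6 in other types. The fifth, of 29 regions in Ttc28 (chr5:110984993-111228999), was low in macrophages, with 66.3 and 63.1 CPM against 242 and 289 in ILC2s. Ttc28 RNA was also lowest in macrophages and highest in ILC2s, with 28.0 and 27.5 RNA CPM in macrophages and 500 and 518 in ILC2s.

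Some far regions neighboured genes for transcription factors and other regulators, and how many depended on the measure. A list of 109 developmental and immune regulators, of which 108 could be placed on the autosomes, was examined. Taking the nearest start of any listed gene, 90 far regions had a gene of the list as neighbour. By this measure 21 of the genes had a far region and 9 had at least 5, among them Nfia (10), Meis2 (8), Tcf21 (8), Nfib (7), Zfpm2 (6), Klf12 (5), Nr4a2 (5) and Sox6 (5). Because non-coding genes often lay in between, the nearest protein-coding gene was also taken, a choice made after the values were seen. By that measure 380 far regions (6.49%) had a gene of the list as neighbour, against 1.98% of near and 1.84% of start regions, and 26 genes had at least 5. Myc had 35, Maf 31, Klf4 and Runx1 29 each, Zfp608 25 and Zeb2 15.

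Tcf21, a transcription factor of lung mesenchyme and 1 of the gate markers of fibroblasts, lay beside far regions open in fibroblasts. Its 8 far regions lay 107 to 261 kb away on chromosome 10, and all 6 that reached the count minimum were called for fibroblasts. The fibroblast counts were 84 in PBS and 182 in OVA at chr10:22927427-22928654, 48 and 84 at chr10:23003386-23004448, 84 and 233 at chr10:23031371-23032307, 84 and 199 at chr10:23059839-23060857, 62 and 143 at chr10:23063162-23064303, and 47 and 100 at chr10:23080850-23081822. ILC2s had between 0 and 10 counts at these regions in PBS and between 2 and 20 in OVA. Summed over the 8 regions, the level was 110 and 142 CPM in fibroblasts and at most 23.6 in any other type in either library. Tcf21 RNA was 341 and 291 CPM in fibroblasts and at most 54.8 elsewhere.

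The neighbourhoods of Gata3 and Runx2 had their highest level in ILC2s. Around Gata3, the transcription factor on which ILC2s depend and 1 of their gate markers, 8 far regions had a summed level of 58.0 and 65.0 CPM in ILC2s and at most 31.4 in any other type. The region 128 kb from Gata3 (chr2:9749707-9750663) had 58 and 129 ILC2 counts and was called for ILC2s, whereas a region 1149 kb away (chr2:8729000-8729909) had 66 and 60 AT2 counts against 4 and 2 ILC2 counts and was called for AT2 cells. The 5 far regions near Runx2, a runt-family factor, had 32.6 and 32.1 CPM in ILC2s and at most 11.4 elsewhere, although Runx2 RNA was lower in ILC2s (41.7 and 78.4 RNA CPM) than in macrophages (266 and 275). The 31 regions near Maf were at least as open in macrophages, with 175 and 236 CPM against 171 and 170 in ILC2s, and 5 were called for ILC2s and 4 for macrophages, 1 of them for both, while Maf RNA was highest in fibroblasts (719 and 708).

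Some neighbourhoods mixed elements of different types. Meis1, a homeobox factor, had 10 far regions on chromosome 11, 174 to 437 kb away. Macrophages had 0 counts there in PBS, which allows up to 3 counts, and 4 in OVA. Of the 4 tested regions, 2 were called for ILC2s, with 44 and 109 ILC2 counts at chr11:19371795-19372750 and 57 and 102 at chr11:19382517-19383429, and 2 for fibroblasts, with 35 and 59 fibroblast counts at chr11:19423758-19424739 and 86 and 167 at chr11:19455534-19456357. Meis1 RNA was 229 and 220 CPM in ILC2s and highest in myofibroblasts or smooth muscle (930 and 735). Around Irx1, an Iroquois factor of the lung, 4 of 7 tested regions were called for AT2 cells and 3 for fibroblasts. The region at chr13:71612360-71613703 had 112 and 106 AT2 counts and 2 and 11 fibroblast counts, and the region at chr13:71669770-71670722 had 6 and 0 AT2 counts and 105 and 151 fibroblast counts. Irx1 RNA was 73.2 and 125 CPM in AT2 cells but 2.74 and 1.93 in fibroblasts. The 11 regions near Sox9, a factor of distal lung epithelium, had 79.4 and 113 CPM in AT2 cells and at most 39.3 elsewhere, with 4 of 7 tested called for AT2 cells.

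**Figure D4:**
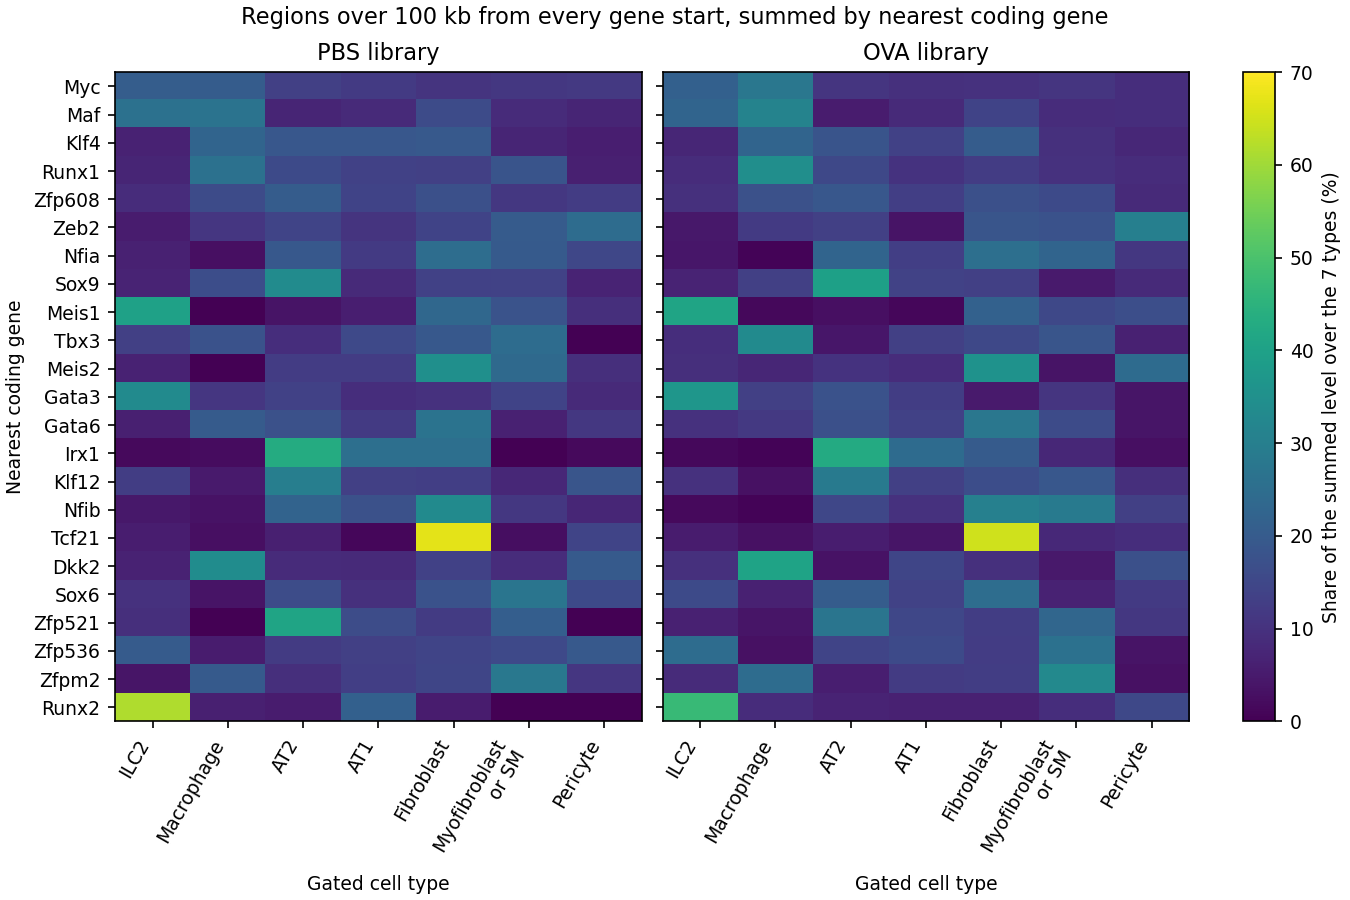
Summed level of the far regions nearest to each transcription factor or regulator gene (rows, genes reported here with at least 5 far regions and 100 counts in each library) in the 7 gated cell types (columns), as the share of the sum over types (colour, %), in both libraries. The share is highest in fibroblasts for Tcf21, in ILC2s for Runx2 and Meis1 and in AT2 cells for Irx1 and Sox9.

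Near one another, far regions more often had the same preference. Among consecutive far regions called for exactly 1 type, 268 of 505 pairs at most 50 kb apart (53.1%, 48.6 to 57.5) had the same type, against 112 of 259 pairs 50 to 500 kb apart (43.2%, 37.1 to 49.5) and 177 of 555 pairs further apart (31.9%, 28.0 to 35.9). Pairs share regions, so they are not independent. Of close pairs with an ILC2 region, 36 of 108 were both ILC2, against 11 of 109 distant ones. For macrophages these were 41 of 129 and 4 of 97.

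A minority of far regions were highest in the same type as the RNA of their nearest gene, and the same held for near and start regions. The share that unlinked genes would give is not given here. Among far regions tested in a library whose nearest listed gene had at least 50 UMIs and was no gate marker, region and gene were highest in the same of the 7 types in 206 of 890 (23.1%, 20.4 to 26.1) in PBS and 425 of 1569 (27.1%, 24.9 to 29.4) in OVA. Near regions had 25.7% and 27.4% and start regions 24.9% and 26.3%, so the intervals of far regions include the values of near regions in both libraries. Regions share genes, and the intervals treat them as separate. For far regions inside a single gene body, the host gene matched in 21.2% (18.6 to 24.0) of 900 and 25.5% (23.3 to 27.9) of 1445.

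Between the libraries, far regions took a larger share of counts in OVA than in PBS in most types. The log2 ratio of the shares, OVA over PBS, was 0.174 (0.162 to 0.185) in fibroblasts, 0.0884 (0.0552 to 0.122) in macrophages (0.0297 with the extended list), 0.0709 (0.0527 to 0.0892) in ILC2s and 0.0516 (0.0374 to 0.0657) in AT2 cells. In pericytes it was 0.0413 and in myofibroblasts or smooth muscle 0.0358, with an interval that included 0 for the latter. AT1 cells went the other way, with -0.0757 (-0.105 to -0.0458), but the interval included 0 with a gate of 4 markers and a lead of 3 (-0.0346), over 200 kb (-0.0429), with counts in all peaks as denominator (-0.0175) and outside gene bodies (-0.0208). Over all gated nuclei it was 0.115, against 0.0388 for near and -0.0251 for start regions. The far peaks were also called wider in OVA, with a mean of 979 bp of peak per region against 935 bp in PBS, and per kb of peak the log2 ratio was 0.124 in fibroblasts, 0.0652 over all gated nuclei, 0.0213 in ILC2s and 0.00193 in AT2 cells. The sign was not stable in pericytes, with -0.00832 per kb of peak, in myofibroblasts or smooth muscle, with -0.0138 per kb of peak and -0.0839 over 200 kb, or in macrophages, with -0.0145 over 200 kb. Nuclei in OVA also had more UMIs, with a median of 1879 against 1170. How depth or peak calling in each library enters these ratios was not tested.

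**Figure D5:**
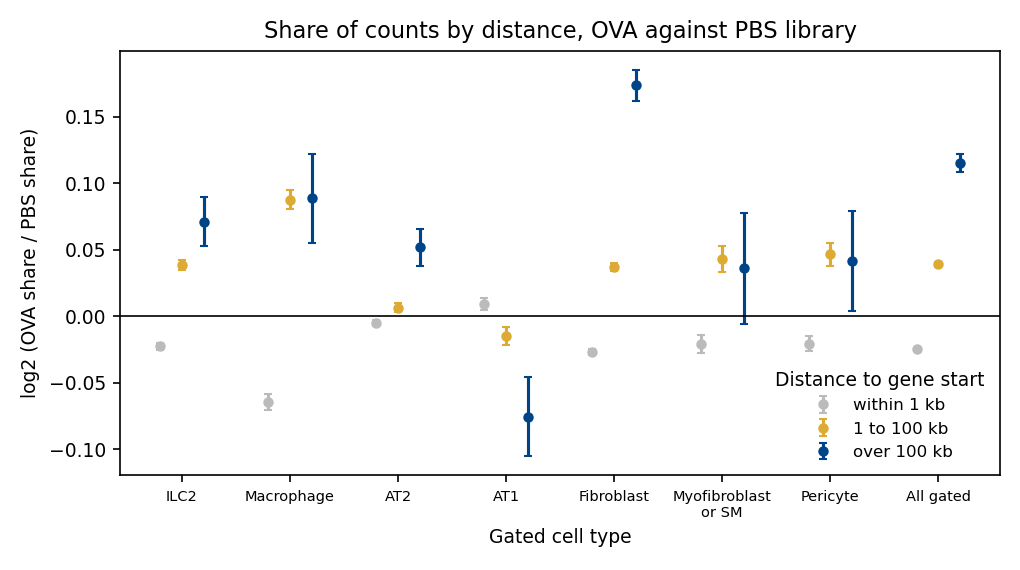
log2 ratio of the OVA share to the PBS share of counts (y axis) for start, near and far regions in 7 gated types and all gated nuclei (x axis). Points are ratios and bars 95% exact intervals for counting error only. Far regions are highest in fibroblasts at 0.174 and lowest in AT1 cells at -0.0757.

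Single far regions were compared between the libraries in ILC2s, macrophages and AT2 cells where a type had at least 20 counts over both libraries, and were called at a ratio of 2 or more with an interval that left out 1. In ILC2s 78 of 1269 far regions were higher in OVA (6.15%) against a background of 4.79% of all tested regions, and 52 were lower (4.10%) against 3.68%. In macrophages 51 of 509 were higher (10.0%, background 7.5%) and 20 lower (3.93%, background 4.01%). In AT2 cells 105 of 1829 were higher (5.74%, background 3.42%) and 97 lower (5.30%, background 4.91%). These calls compare 2 libraries, without replicates. The median log2 ratio of far regions was 0.0830 in ILC2s against 0.0159 over all tested regions.

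The highest ratio in ILC2s was at a region in Fmnl2, a formin gene (chr2:52958748-52959623), with 42 counts in 20 of 519 nuclei in OVA and 1 count in 303 nuclei in PBS, or 9.64 and 0.397 CPM. Its log2 ratio was 4.60 (2.04 to 9.94), while over all gated nuclei it was 0.0721. A region 109 kb from Rasa1 (chr13:85398523-85399512) had 31 and 2 counts and a log2 ratio of 3.16 (1.19 to 6.27). Its log2 ratio over all gated nuclei was 1.94, and its 2 ILC2 counts in PBS came from 1 nucleus. A low ratio in ILC2s was between Npvf and Nfe2l3 (chr6:51129360-51130334), with 4 counts in OVA and 16 in PBS and a log2 ratio of -2.79 (-4.83 to -1.16). In macrophages, regions in Dip2c (chr13:9418572-9419591) and between Map1b and Cartpt (chr13:99647623-99648763) had 22 and 20 counts in OVA and 0 in PBS. With 0 set to 3 counts per library they were 3.41-fold and 3.10-fold higher in OVA. The lower interval limits of their log2 ratios were 1.35 and 1.20. Regions near Cysltr2 (chr14:72933322-72934273, 9 and 16 counts) and Bmper (chr9:23569753-23570793, 8 and 13) were lower in CPM in OVA. In AT2 cells, regions in Skap1 (chr11:96622496-96623417, 25 and 6 counts) and Dnah8 (chr17:30746001-30746898, 20 and 6) were highest, and regions in Cntnap5b (chr1:100179769-100180842) and Trps1 (chr15:50703490-50704449) had 0 counts in OVA and 20 and 21 in PBS. With 0 set to 3 counts these last regions were 4.22-fold and 4.43-fold lower in OVA. The upper interval limits of their log2 ratios were -1.64 and -1.72. Over all gated nuclei, the 2 regions with 0 counts in AT2 cells in OVA had log2 ratios of 0.237 and 0.388. On this scale the Skap1 and Dnah8 regions had 0.952 and 0.558, and the region between Npvf and Nfe2l3 had -0.717. The macrophage regions had 0.422 (Dip2c), 0.145 (between Map1b and Cartpt), -0.411 (near Cysltr2) and 0.19 (near Bmper).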

How the data were processed

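The authors pooled fetal lungs per group, sorted and mixed cells, and made 1 library per group with RNA and chromatin from the same nuclei. Per the labels, reads were processed with Cell Ranger ARC 2.0.1 against mm10 (GRCm38), which called peaks in each library separately. The deposited counts are UMIs per gene and transposition events per peak and barcode. Nuclei needed 200 genes or more and a mitochondrial share of UMIs up to 60%, and doublets were not called. They were gated on 10 RNA markers a type. Counts were summed per type and library, with no test between groups. Exact binomial intervals (95%) were computed with Python 3.11.15, numpy 2.4.6, scipy 1.17.1 and pandas 2.3.3, and figures with matplotlib 3.10.9. Scripts were checked on simulated data.

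Members, marker lists, the 109 regulators and the rules were chosen with earlier results of these data known. Regions named are the 5 with the most counts, the 3 leading regions per type by the smaller of both libraries' ratios, the 2 highest and 2 lowest OVA to PBS ratios in ILC2s, macrophages and AT2 cells, and the 5 longest runs. Genes named are their neighbours and regulators with at least 5 far regions. Other windows, neighbours by coding gene, the extended macrophage list and depth ranges were chosen after seeing the data. Sequence round the centre of the leading regions was planned but not used here. One region and 1 regulator that these rules name are not reported here.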

Additional observations from a re-analysis of the deposited data

Results flagged for a closer look

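The share of counts in far regions was lower in OVA than in PBS in AT1 cells, with a log2 ratio of -0.0757, while in fibroblasts it was higher, with 0.174. This was marked because the types moved in opposite directions, and the difference between them was not tested, since each group is 1 library. The interval of the AT1 ratio included 0 with a gate of 4 markers and a lead of 3 (-0.0346), over 200 kb (-0.0429), with counts in all peaks as denominator (-0.0175) and outside gene bodies (-0.0208).

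Mast cell or basophil nuclei, which were too few for the comparisons (36 in PBS and 74 in OVA), had 2.16% of their counts in far regions in PBS and 2.48% in OVA, close to the fibroblast shares.

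Peaks over 100 kb from every listed start that had no partner in the other library were outside the comparisons. They numbered 3879 in PBS (39.6% of 9799 far peaks) and 4643 in OVA (44.1% of 10531), with medians of 12 and 8 counts in gated nuclei against 35 and 55 for far peaks with a partner.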

How the results depend on the processing

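Fibroblasts had the highest share of counts in far regions under every alternative run, and the lowest was in ILC2s or pericytes. Moving the distance limit gave 14882 regions over 50 kb and 1899 over 200 kb, and leaving out gene bodies gave 3336. The ratio of the highest to the lowest share (PBS, OVA) was 1.63 and 1.75 with a gate of 4 markers and a lead of 3 (the stricter gate), 1.80 and 2.07 over 200 kb, 1.56 and 1.66 with each count set to present or absent, and 1.64 and 1.74 with the extended macrophage list, and in PBS 1.50 with the joint filter on RNA and chromatin counts and 1.60 outside gene bodies. The log2 OVA to PBS ratio over all gated nuclei was 0.102 (stricter gate), 0.128 (joint filter), 0.164 (over 200 kb), 0.161 (counts in all peaks as denominator), 0.0836 (present or absent), 0.0652 (per kb of peak), 0.141 (outside gene bodies) and 0.0752 (extended list). Regions called for any type numbered 711 (stricter gate), 359 (over 200 kb), 703 (outside gene bodies), 2787 (at least 20 counts), 465 (at least 100 counts) and 2439 (extended list), against 1495. The match to the nearest gene was 18.6% in PBS with the stricter gate. The OVA to PBS ratio changed sign in macrophages (-0.00219 with the stricter gate, -0.0145 over 200 kb), myofibroblasts or smooth muscle (0.0358, but -0.0138 per kb of peak and -0.0839 over 200 kb) and pericytes (-0.00532 and -0.0157 under the same settings as macrophages, and -0.00832 per kb of peak). The cause was not tested. No paired analysis was possible because 1 library stood for each condition. Few counts per region limit the rarer types most.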
